A study of Homo sapiens with 12 samples.

Results

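The 10 genes described here encode proteins that build the mitotic spindle or divide the cell and are not motors: PSRC1, TPX2, PRC1, ASPM, NUSAP1, ANLN, ECT2, CKAP2, KNSTRN and DLGAP5. They were chosen by symbol from the 59276 symbols of the gene table. Each of the 10 was in the table and passed the filter on low values in every comparison. RNA of JJN3, a human multiple myeloma (plasma cell cancer) line, was sequenced in 12 samples, 3 in each of 4 groups. JJN3 cells were given DMSO, the solvent, or 10 µM of MS023, an inhibitor of the type I protein arginine methyltransferases, for 3 days. The isgCtrl and PRMT1-KO groups were JJN3 cells that stably expressed Cas9 and carried a doxycycline-inducible guide RNA. Doxycycline was given to both of these groups for 3 days. The guide of isgCtrl was a control, and the guide of PRMT1-KO, iPRMT1_1, targeted PRMT1, the main type I enzyme. Both guide lines were selected lines, and nothing in the sources used here says that they were single clones. The DMSO and MS023 cells are not described as carrying Cas9 or a guide, so the 2 pairs of groups have their own controls. The study's methods speak of independent experiments in general, and neither they nor the labels say how the RNA replicates were grown. The p-values set the group differences against the spread between these samples, which may be technical in part.

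Levels are given as log2(TPM+1), where TPM is a transcript abundance corrected for transcript length and for the total of the sample. Between 20988 and 22241 genes were above 0 in a sample. A minimum sequencing depth is stated for the samples in common, but TPM are scaled to a fixed sum, so the reads behind a single value cannot be read from them. PRMT1 measured 860 ± 9.15 TPM in isgCtrl and 304 ± 4.34 TPM in PRMT1-KO (SD, n = 3), so that 35.4% of the isgCtrl level was left. In DMSO PRMT1 was lower than in isgCtrl, at 653 ± 18.25 TPM, and in MS023 it measured 673 ± 23.58 TPM. Transcript level does not measure editing or protein, and the study's western blots of PRMT1 were not analysed here. Of 8 plasma cell markers, 8 had a group mean above 1 on the log2 scale in DMSO and in MS023, 7 in isgCtrl and 5 in PRMT1-KO. Their summed TPM ranged from 716 to 755 in DMSO, 1153 to 1197 in MS023, 653 to 667 in isgCtrl, and in PRMT1-KO from 627 to 631. The sum was higher with MS023, mainly through XBP1, at 224 ± 4.51 TPM in DMSO and 496 ± 4.56 TPM in MS023 (SD, n = 3), while CD38 went from 4.96 ± 0.40 to 2.24 ± 0.16 TPM. MZB1 measured 105 ± 2.16 TPM in DMSO, 178 ± 2.94 in MS023, 2.01 ± 0.38 in isgCtrl and 1.01 ± 0.62 in PRMT1-KO. SLAMF7 was likewise at 9.32 TPM in DMSO, 52.2 in MS023, 0.37 in isgCtrl and 0.46 in PRMT1-KO, so that MZB1 and SLAMF7 were near 0 in both guide lines. The part of these markers in the results below was not tested. For 13 markers of other cell types the sum ranged from 2.39 to 11.9 TPM over all samples. HBB, a haemoglobin chain, had the highest mean of them in each group, but not the highest level in every sample. In the second isgCtrl sample COL1A1 was at 6.06 TPM and HBB at 4.50 TPM.

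The mitotic spindle is an array of microtubules that separates the chromosomes. Some of its microtubules start near chromatin, where the GTPase Ran releases spindle factors such as TPX2 from importins. After the chromosomes part, antiparallel microtubules are bundled into a midzone, which directs the contractile ring that cleaves the cell. Transcripts of such proteins usually peak in the G2 and M phases of the cell cycle. Their promoters often hold a CHR (cell cycle genes homology region), bound by complexes with the MuvB core, and CCAAT boxes, bound by NF-Y.

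All 10 are protein-coding genes, placed here on GRCh38 by GENCODE v44. On chromosome 1 lie PSRC1 (109279556 to 109283186, minus strand) and ASPM (197084121 to 197146694, minus strand). Chromosome 15 holds KNSTRN (40382721 to 40394288, plus strand), NUSAP1 (41320794 to 41381050, plus strand) and PRC1 (90966040 to 90995629, minus strand). ECT2 lies on chromosome 3 (172750682 to 172821474, plus strand) and ANLN on chromosome 7 (36389821 to 36453791, plus strand). CKAP2 lies on chromosome 13 (52455429 to 52476628, plus strand), DLGAP5 on chromosome 14 (55148112 to 55191608, minus strand) and TPX2 on chromosome 20 (31739271 to 31801805, plus strand). The 10 thus lie on 7 chromosomes.

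Promoter sequences were compared for letters that the 10 genes share. RefSeq windows on GRCh38.p14, from 250 bases before the transcript start to 50 bases from the start on, were held for 9 of the 10 genes. TPX2 had no window. The CHR was searched as TTTGAA and the CCAAT box as CCAAT, both on either strand. The CHR was found in 6 of the 9 windows (PRC1, ASPM, NUSAP1, ANLN, ECT2 and DLGAP5), and in 15.4% of all 27305 windows. The CCAAT box was found in 6 of 9 (PSRC1, PRC1, ASPM, NUSAP1, ECT2 and DLGAP5), and in 35.7% of all windows. Both stood in 5 of 9, and in 6.08% of all windows. An E2F site, searched as TTTGGCGC, TTTCGCGC or GGCGGGAA, was found in NUSAP1 alone of the 9, and in 4.30% of all windows. CKAP2 and KNSTRN held none of these letters. A match is a description of letters, not of a bound site.

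Upstream sequences are printed for PSRC1 and DLGAP5, the genes with the lowest changes with MS023, for ASPM, which differed between the control groups, and for KNSTRN, which had no match. They run 5′ to 3′ along the gene's strand and stop before the first annotated exon base. Capitals mark the CHR and CCAAT letters found on either strand. Lower case letters are the rest.
PSRC1 (chr1:109283187-109283395, minus strand): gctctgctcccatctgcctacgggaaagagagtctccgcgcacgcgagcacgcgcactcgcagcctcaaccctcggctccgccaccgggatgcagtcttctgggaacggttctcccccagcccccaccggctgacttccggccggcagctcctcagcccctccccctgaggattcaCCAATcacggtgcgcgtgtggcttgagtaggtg
DLGAP5 (chr14:55191609-55191835, minus strand): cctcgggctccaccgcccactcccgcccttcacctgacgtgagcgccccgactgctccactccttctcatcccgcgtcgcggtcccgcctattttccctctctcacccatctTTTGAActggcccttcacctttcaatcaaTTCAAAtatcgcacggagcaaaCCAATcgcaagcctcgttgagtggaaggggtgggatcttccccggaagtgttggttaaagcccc
ASPM (chr1:197146695-197146919, minus strand): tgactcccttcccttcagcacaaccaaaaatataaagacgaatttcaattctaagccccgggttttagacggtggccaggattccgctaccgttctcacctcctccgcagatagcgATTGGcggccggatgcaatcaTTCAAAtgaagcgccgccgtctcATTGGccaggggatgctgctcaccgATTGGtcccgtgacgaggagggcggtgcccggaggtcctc
KNSTRN (chr15:40382471-40382720, plus strand): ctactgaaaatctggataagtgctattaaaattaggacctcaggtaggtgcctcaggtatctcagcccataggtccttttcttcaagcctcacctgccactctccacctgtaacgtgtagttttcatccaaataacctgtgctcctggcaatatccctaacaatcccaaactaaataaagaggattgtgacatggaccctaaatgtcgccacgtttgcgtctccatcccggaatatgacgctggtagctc
The 209 bases of PSRC1 held a single CCAAT box and no CHR. DLGAP5 and ASPM held both.

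For the other CHR genes, only 30 bases around a CHR, in capitals, are shown to compare its setting. In PRC1 and NUSAP1 the window began in an annotated exon, so that no such upstream sequence was held. ANLN had 209 bases and ECT2 206 bases before the first annotated exon base.
PRC1 (chr15:90994538-90994567, minus strand): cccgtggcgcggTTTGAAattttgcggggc
ANLN (chr7:36389830-36389859, plus strand): ctgaaattcaaaTTTGAAcggctgcagagg
NUSAP1 (chr15:41332882-41332911, plus strand): tggcgccagggaTTTGAAccgcgctgacga
ECT2 (chr3:172750599-172750628, plus strand): tcgttgggcttaTTTGAAacacacgcacaa
The CHR began at position -20 from the transcript start in both PRC1 and ANLN, at 14 in NUSAP1 and at -115 in ECT2. ANLN had a further match on the other strand at -26, which is not capitalized here, and ECT2 a further one at 35.

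With MS023, the transcripts of all 10 genes fell, to between 15.0% and 44.6% of the DMSO level in TPM. The median log2 fold change of the 10 was -1.50, beside -0.11 for all 12903 genes tested. All 10 were called lower (limma's p adjusted by Benjamini-Hochberg below 0.05, and a log2 fold change beyond 0.48 in size), with adjusted p of 0.000625 or less. Among all genes tested 19.3% were called lower and 30.9% were called in either direction. With median-ratio scaling between samples, the calls over all genes went from 2486 lower and 1500 higher to 1885 lower and 1995 higher, and the 10 stayed called lower. The 10 genes and the lists below were chosen with results of these samples known, and the study itself named PSRC1, ASPM and, among the listed genes, FAM83D, KIF4A, KIF14 and KIF20A from them, so their direction is not independent evidence. The MS023 and DMSO samples did not overlap in any of the 10 genes, a separation that 36.3% of all tested genes showed in the same direction. The smallest p of a 2-sided exact permutation test of 3 samples against 3 is 0.1, which each gene reached. In RNA of whole cultures, fewer dividing cells and less RNA per cell cannot be told apart.

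**Figure D1:**
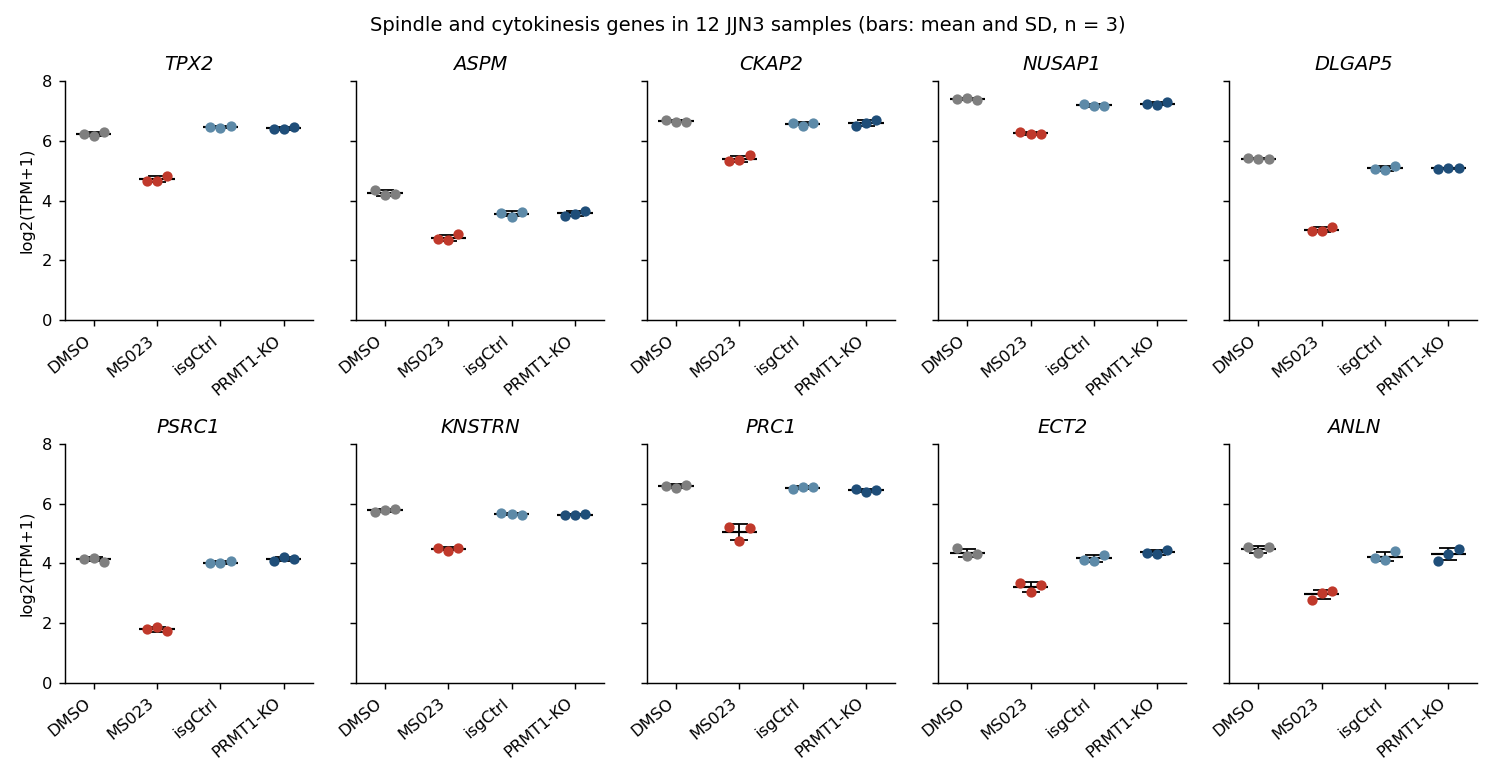
Level of each of the 10 genes in every sample, as log2(TPM+1) on the y axis, with the 4 groups on the x axis, a point per sample and a bar at the group mean. The 3 MS023 samples lie below the 3 DMSO samples in all 10 panels, a separation that 36.3% of all tested genes showed in the same direction.

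Of the proteins of spindle assembly and poles, DLGAP5 (also HURP), which stabilizes the microtubules that reach the chromosomes, had the lowest change of the 10. Its levels were 5.42, 5.38 and 5.40 in the DMSO samples and 2.97, 2.99 and 3.12 in the MS023 samples, in log2(TPM+1). The groups were more than 2 log2 units apart, and each spread over less than 0.2. DLGAP5 fell by 2.37 ± 0.07 (SE) on the log2 scale, with limma's adjusted p of 4.65e-05, and 17.4% ± 1.13 (SD, n = 3) of its TPM was left. Among the 12903 tested genes it stood at rank 8 from the lowest change.

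TPX2, which Ran releases to start microtubules and to activate the kinase Aurora A, measured 6.24, 6.17 and 6.29 in DMSO and 4.66, 4.64 and 4.83 in MS023. Its log2 fold change was -1.52 ± 0.08 (SE, limma adjusted p = 8.95e-05). ASPM, a protein of spindle poles whose loss causes a small brain, measured 4.36, 4.18 and 4.21 in DMSO and 2.73, 2.68 and 2.87 in MS023, a change of -1.49 ± 0.08. The changes of TPX2 and ASPM lay within 1 SE of each other. NUSAP1, which bundles microtubules near chromosomes, was the most abundant of the 10 at 168 ± 3.63 TPM in DMSO, and it measured 74.9 ± 1.96 TPM in MS023. Its samples were 7.41, 7.42 and 7.37 in DMSO and 6.29, 6.23 and 6.22 in MS023 on the log2 scale. CKAP2, a microtubule stabilizer, measured 6.69, 6.63 and 6.64 in DMSO and 5.32, 5.35 and 5.52 in MS023. NUSAP1 changed by -1.16 and CKAP2 by -1.26, toward the smaller end of the 10.

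Of the proteins of kinetochore fibres and chromosome alignment, PSRC1, a microtubule-binding protein needed for alignment, kept the smallest share of its TPM. Its levels were 4.15, 4.19 and 4.06 in DMSO and 1.79, 1.88 and 1.72 in MS023. The TPM mean went from 16.6 ± 0.81 to 2.48 ± 0.20 (SD, n = 3), which left 15.0% ± 1.19. On the log2 scale PSRC1 fell by 2.33 ± 0.07 (SE, limma adjusted p = 5.16e-05). The 95% intervals of PSRC1 and DLGAP5, from -2.51 to -2.15 and from -2.53 to -2.21, lay below those of the 8 other genes, which reached down to -1.87. KNSTRN (kinastrin), a partner of astrin at kinetochores, measured 5.73, 5.77 and 5.83 in DMSO and 4.52, 4.42 and 4.52 in MS023, and 39.8% ± 1.58 of its TPM was left.

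Of the proteins of the midzone and cytokinesis, PRC1, which cross-links antiparallel microtubules, had the widest spread with MS023. Its levels were 6.59, 6.51 and 6.63 in DMSO and 5.21, 4.74 and 5.18 in MS023. The second MS023 sample was the low one, and PRC1 changed by -1.53 ± 0.14 (SE, limma adjusted p = 0.000459). ECT2, the exchange factor that switches on RhoA at the cell equator, had the smallest change of the 10. It measured 4.50, 4.24 and 4.32 in DMSO and 3.32, 3.03 and 3.28 in MS023. ECT2 fell by 1.14 ± 0.11 (SE, limma adjusted p = 0.000625), and 3.76% of all tested genes changed as low or lower. ANLN (anillin), the scaffold of the contractile ring, measured 4.54, 4.33 and 4.53 in DMSO and 2.79, 3.01 and 3.08 in MS023, a change of -1.51 ± 0.11. The 3 genes of this role thus spanned -1.53 to -1.14, with overlapping intervals.

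PRC1 and NUSAP1 each share exonic bases with another annotated protein-coding gene on the same strand. NUSAP1 also shares them with the non-coding OIP5-AS1 on the same strand and with OIP5 on the other strand. On the other strand, PRC1 shares exonic bases with PRC1-AS1 and ANLN with MATCAP2. The setting of strand in the quantification is not given in the sources used here, and it would not separate genes on the same strand. The split of reads among these genes is therefore uncertain. Added over the 10 genes, TPM was 607 ± 10.2 in DMSO and 226 ± 11.2 in MS023 (SD, n = 3). NUSAP1, CKAP2, TPX2 and PRC1 made up 72.0% of the sum in DMSO and 77.0% in MS023.

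**Figure D2:**
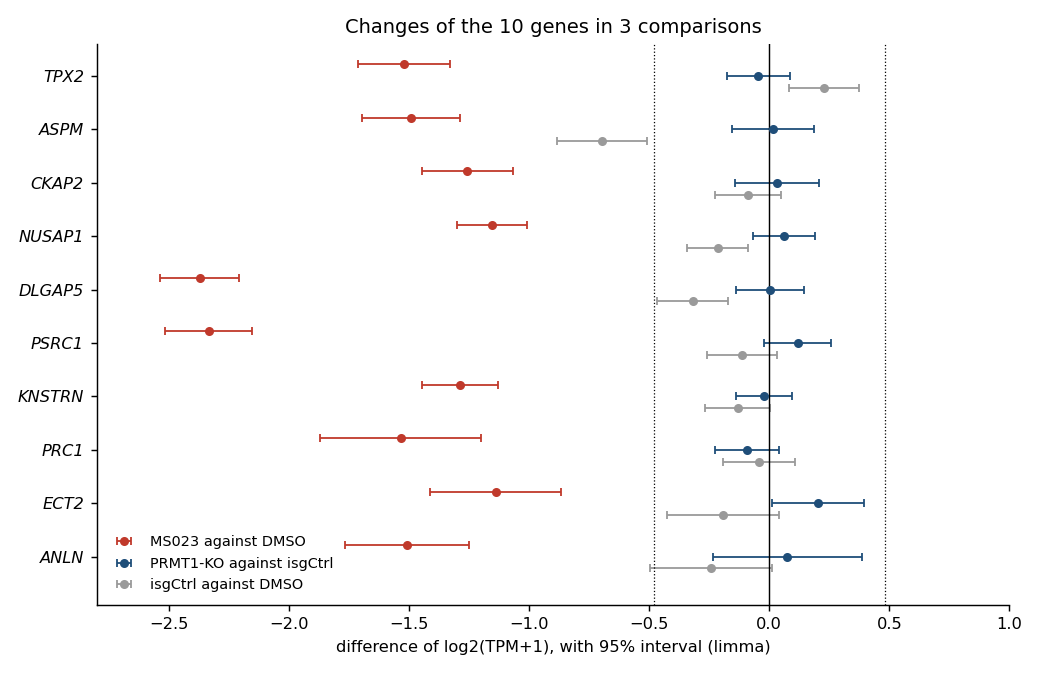
Difference of log2(TPM+1) on the x axis for each of the 10 genes, in 3 comparisons, with points for the limma estimate and bars for its 95% interval. The MS023 points run from -2.37 to -1.14, and the PRMT1-KO intervals all lie between the dotted lines at an absolute change of 0.48.

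PRMT1-KO against isgCtrl asked whether a guide to PRMT1 came with such changes. None of the 10 genes was called by limma, where 0.781% of all 12285 tested genes (96) were called. These 96 calls fell to between 2 and 18 without any 1 replicate, and with the replicate block to 0, PRMT1 included (limma adjusted p = 0.149), with 2054 genes at an unadjusted p under 0.05. The median log2 fold change of the 10 genes was 0.03, beside -0.04 for all genes tested, and single genes of the 10 ranged from -0.09 (PRC1) to 0.20 (ECT2). The 95% intervals of the 10 together spanned -0.23 to 0.39, so that a change as large as the smallest one with MS023 lay outside each of them. At an unadjusted p under 0.05 limma gave 1 gene of the 10, ECT2, whose adjusted p by limma was 0.247.

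ECT2 measured 4.12, 4.08 and 4.28 in isgCtrl and 4.34, 4.30 and 4.46 in PRMT1-KO, the single gene of the 10 whose groups did not overlap. Of all tested genes 9.11% were separated in this way with PRMT1-KO higher. DLGAP5 measured 5.05, 5.02 and 5.17 in isgCtrl and 5.06, 5.09 and 5.10 in PRMT1-KO, and its interval ran from -0.14 to 0.15. PSRC1 measured 3.994, 3.995 and 4.068 in isgCtrl and 4.068, 4.196 and 4.149 in PRMT1-KO, with an interval from -0.02 to 0.26, and the highest isgCtrl sample was level with the lowest PRMT1-KO sample. The pair with the lowest changes under MS023 thus had intervals here that include 0. ANLN had the widest interval, from -0.23 to 0.39, with 4.17, 4.10 and 4.40 in isgCtrl and 4.09, 4.32 and 4.48 in PRMT1-KO. The isgCtrl and PRMT1-KO samples of ANLN overlapped.

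The 6 remaining genes had group means within 0.1 of each other on the log2 scale. TPX2 measured 6.46, 6.42 and 6.51 in isgCtrl and 6.38, 6.39 and 6.47 in PRMT1-KO. PRC1, with the lowest change, measured 6.47, 6.57 and 6.56 in isgCtrl and 6.48, 6.40 and 6.44 in PRMT1-KO, and its interval ran from -0.23 to 0.04. In both genes the samples of the groups overlapped. NUSAP1 measured 7.23, 7.18 and 7.15 in isgCtrl and 7.24, 7.20 and 7.30 in PRMT1-KO. CKAP2 measured 6.59, 6.50 and 6.60 in isgCtrl and 6.50, 6.59 and 6.71 in PRMT1-KO. KNSTRN measured 5.69, 5.63 and 5.61 in isgCtrl and 5.60, 5.62 and 5.64 in PRMT1-KO, the tightest PRMT1-KO group of the 10. These groups overlapped as well, and limma's adjusted p was 0.572 for NUSAP1, 0.836 for CKAP2 and 0.822 for KNSTRN.

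**Figure D3:**
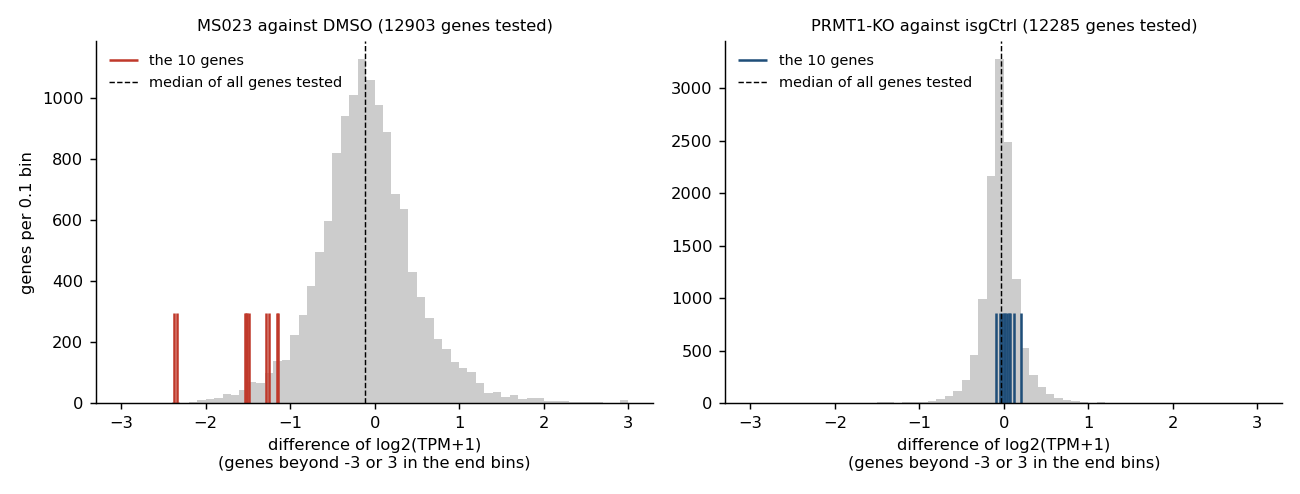
Histograms of the log2 fold change of all tested genes with MS023 and with PRMT1-KO, with ticks for the 10 genes. The ticks lie in the lower tail with MS023 and around the centre with PRMT1-KO.

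The difference between both effects was tested in a limma fit of all 12 samples. The MS023 effect was lower than the PRMT1-KO effect in all 10 genes by this test, with a median difference of -1.46 and adjusted p of 8.4e-05 or less. The difference ranged from -2.45 in PSRC1 to -1.22 in NUSAP1. Of all 13256 genes tested 14.7% were called lower in it. The inhibitor acts on several enzymes and the guide on 1, and 35.4% of the PRMT1 transcript level was left in PRMT1-KO. The effects were also measured in different derivatives of JJN3. Target, extent of PRMT1 loss and cell line thus cannot be told apart here.

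The control groups differed too. Of all 12661 genes tested between isgCtrl and DMSO 13.9% were called, and 1 of the 10 genes was, ASPM. ASPM measured 3.58, 3.46 and 3.63 in isgCtrl, below every DMSO sample, and 3.50, 3.56 and 3.65 in PRMT1-KO. It was lower in isgCtrl than in DMSO by a log2 fold change of -0.70 (limma adjusted p = 0.00238), with 59.6% of the TPM. DLGAP5 at -0.32 and NUSAP1 at -0.21 had adjusted p of 0.0116 and 0.0250 by limma, as did TPX2 at 0.23 with 0.0311, all under the fold change threshold. Over the alternatives the adjusted p by limma reached 0.0925 for TPX2 and 0.0792 for NUSAP1, against 0.0455 for DLGAP5, and with the replicate block it was 0.0592 for TPX2 and 0.0679 for NUSAP1. The 2 groups were separated with isgCtrl lower in 5 of the 10 genes, and in 19.9% of all tested genes. Cas9, guide vector, selection and doxycycline cannot be told apart in this comparison. In the order of the group means, MS023 was lowest in each of the 10 genes. The highest mean was that of PRMT1-KO in PSRC1 and ECT2, of isgCtrl in TPX2 and of DMSO in the others. This order was not taken over all tested genes, so how common it is was not tested. Against DMSO alone, 59.1% of all tested genes had a log2 fold change below 0 with MS023.

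Lists of 90 genes of the same processes were read beside the 10, all of them tested with MS023. The named genes of these lists have SE of 0.06 to 0.21 on the log2 scale. Of the 90, 47 were called lower, 4 were called higher and 39 were not called, with a median log2 fold change of -0.50. These are 52.2% lower and 4.44% higher, beside 19.3% lower and 11.6% higher among all tested genes. In PRMT1-KO none of 89 tested was called by limma, beside 0.781% of all genes. There, 16 of the 89 (18%) were at an unadjusted p under 0.05, as were 18.6% of all genes, and the median was -0.05. All 10 midzone partners were called lower with MS023, with a median of -1.28. They include the motors KIF14 (-1.75), KIF20A (-1.69) and KIF23 (-1.57). Of 18 spindle assembly partners 11 (61.1%) were called lower, at a median of -0.92, among them the kinase AURKA (-1.75), which TPX2 activates, FAM83D (-1.60) and SPAG5 (-1.38), the astrin that binds KNSTRN.

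Of 18 genes of microtubule nucleation 10 (55.6%) were called lower, at a median of -0.51. The lowest were the augmin subunits HAUS4 (-1.25), HAUS1 (-1.16) and HAUS8 (-1.08), which branch new microtubules from old ones. Of 6 genes of Ran and importin 4 (66.7%) were called lower, with RANBP1 at -0.92, the importin KPNA2 at -0.76 and RANGAP1 at -0.59. The list of contractile ring and abscission was near the background, with 5 of 22 lower (22.7%), 4 higher (18.2%) and a median of -0.12, beside 19.3%, 11.6% and -0.11 among all tested genes. The formin DIAPH3 (-1.55), the midbody protein CEP55 (-1.48) and citron kinase CIT (-0.74) were lower. The myosin chains MYH9 (0.73) and MYL12A (0.72) and the ESCRT subunit CHMP4B (0.56), which also serve outside division, were higher. Of 16 promoter regulators 7 (43.8%) were called lower, at a median of -0.47, with FOXM1 at -1.33, the NF-Y subunit NFYB at -1.05 and MYBL2 at -0.98. The other NF-Y subunits, NFYA (-0.29) and NFYC (0.13), were not called. Of the MuvB core, LIN9 (-0.76) and RBBP4 (-0.85) were called lower, and LIN37 (0.36), LIN52 (-0.20) and LIN54 (-0.30) were not called.

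**Figure D4:**
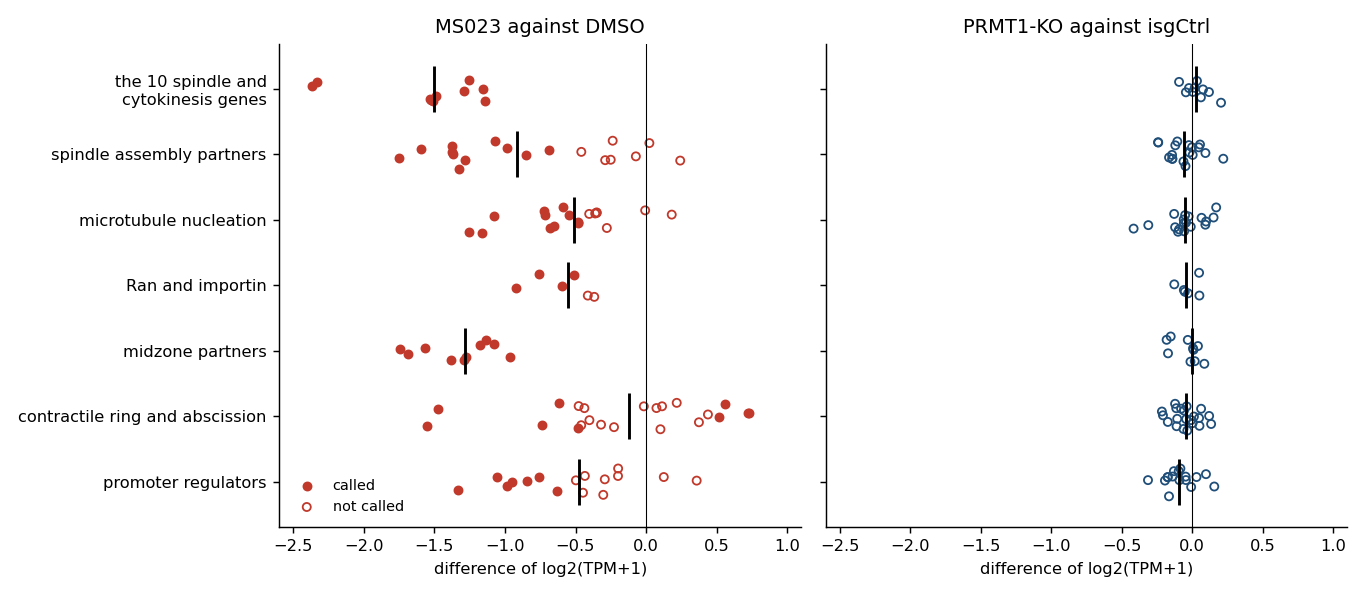
Log2 fold change with MS023 and with PRMT1-KO for the genes of each list, a point per gene, filled where called, and a line at the median, with the 10 genes in the top row. Of the 6 lists below it the midzone partners have the lowest median with MS023, and the contractile ring list spans both directions.

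Pearson's r of a gene with the mean of the 9 others over the 12 samples ran from 0.882 in ASPM to 0.998 in DLGAP5. The 5 genes outside the 10 with the most similar pattern, of 13246 compared, were SASS6 (r = 0.998), a centriole protein, HMGB2 (0.997), a chromatin protein, the tubulin TUBB (0.997), the cyclin CCNA2 (0.997) and the kinase NEK2 (0.996). These r rest on 12 samples that share the low MS023 group and are given as a description. Among the 3 other groups the order of the means differed between genes, as given above for the controls.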

How the data were processed

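The authors deposited log2(TPM+1) per gene symbol for 12 samples. By the study's methods they used Trimmomatic for trimming, STAR for alignment to hg38 (GENCODE V35 annotation) and Salmon for quantification. Tool versions are not given in the sources used here. Groups and replicate numbers came from the samples' labels, and no sample was left out.

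Linear models of limma 3.58.1 (R 4.3.3, eBayes without trend) were fitted to the log2 values of all genes with a group mean above 1, and p-values were adjusted by Benjamini-Hochberg over all genes tested. A gene was called when its adjusted p was under 0.05 and its log2 fold change exceeded 0.48 in size. MS023 minus PRMT1-KO effects were tested on all 12 samples. The code was tested on simulated data.

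The 10 genes and the lists were chosen with earlier results of these data known. Genes named outside the 10 are the 3 largest changes of a list, up to 3 called against its median, and the 5 nearest patterns. The other subunits of NF-Y and the MuvB core are named as well. Alternatives were another pseudocount (0.1), filter, scaling, threshold, trend, replicate block, joint fit and each replicate left out. Positions came from GENCODE v44 and promoters from RefSeq.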

Additional observations from a re-analysis of the deposited data

Results flagged for a closer look

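The effects of MS023 and of PRMT1-KO on the 10 genes differed by the test of the difference itself (limma on all 12 samples, Benjamini-Hochberg). MS023 minus PRMT1-KO was -2.45 for PSRC1, -2.37 for DLGAP5, -1.58 for ANLN, -1.51 for ASPM and -1.48 for TPX2, in log2 fold change. It was -1.44 for PRC1, -1.34 for ECT2, -1.29 for CKAP2, -1.26 for KNSTRN and -1.22 for NUSAP1.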

How the results depend on the processing

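With MS023 the 10 genes were called lower in all 140 fits of 14 alternatives, at -2.69 to -1.004, and the difference of the effects in all 190 fits. These fits reuse the same samples and are not separate evidence. Over the alternatives, 13.1% to 32.9% of all tested genes were called in either direction with MS023, and 9.46% to 25.4% in the difference. In PRMT1-KO no fit called any of the 10. There, KNSTRN turned from -0.02 to 0.018 with median-ratio scaling and 0.013 with quantile normalization. Without 1 replicate in turn, ASPM ranged from -0.030 to 0.053, ANLN from -0.016 to 0.18, CKAP2 from -0.022 to 0.083 and DLGAP5 from -0.024 to 0.049. Between isgCtrl and DMSO, 4 of the 10 were called with no fold change threshold and 0 with one of 1, against 1 (ASPM), where 34.5%, 2.91% and 13.9% of all tested genes were called. With a threshold of 1, 24 of the 90 listed genes were called with MS023, against 51, where 8.39% and 30.9% of all tested genes were called. Median-ratio scaling moved the median of all genes with MS023 by 0.107, the median of the 10 to -1.39, and all calls from 2486 lower and 1500 higher to 1885 and 1995. Calls over all genes in PRMT1-KO fell from 96 to between 2 and 18 without 1 replicate, whichever of the 6 it was.

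Same-numbered samples deviated together with r of 0.02 to 0.10 in MS023 and DMSO and of -0.14 to 0.07 in PRMT1-KO and isgCtrl, so the numbers were not taken to pair samples. With the replicate block, 10 of the 10 genes were called with MS023 and 0 in PRMT1-KO, and calls over all genes in PRMT1-KO went to 0. The reads behind single values are not known from TPM, so no counting interval is given.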
